A study of Mus musculus with 4 samples.

Results

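Mt1, Mt2, Mtf1 and Slc30a1 are 4 genes that hold, sense and export zinc, and their RNA was followed through the leukocytes of mouse melanomas treated with a glucocorticoid (GC). The genes were chosen by name, and all 4 were found among the 32285 genes of the deposited expression table. The measurement was single cell RNA sequencing of live CD45+ cells sorted from intradermal tumors of 20967, a single melanoma line, in wild type hosts. The line carries Nras+LSL-G12D and Tyr::CreERT2+/o on C57BL/6. Clobetasol propionate, a potent topical GC, was given to 5 mice and a control preparation to the other 5. Each tumor carried its own hashtag antibody, the 5 tumors of a group were pooled, and each pool filled 1 channel. Treatment and channel therefore cannot be told apart.

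Metallothioneins are small, cysteine-rich proteins that bind zinc and copper and also scavenge oxidants. Mtf1 encodes the zinc-sensing transcription factor that binds metal response elements in the promoters of Mt1, Mt2 and Slc30a1, and Slc30a1 encodes ZnT1, the zinc exporter of the plasma membrane. In myeloid cells metallothioneins are known to be induced by zinc, by inflammatory signals and by GCs.

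The filtered table held 4108 cells, 3803 from control tumors and 305 from GC-treated tumors. A control tumor contributed 347 to 1250 cells and 2735708 to 9869474 UMIs (unique molecular identifiers, each a captured RNA molecule), and a GC-treated tumor 18 to 111 cells and 139195 to 1235264 UMIs. GC-treated values therefore rest on far fewer cells, with GC-treated tumors 1 and 4 at 18 and 22 cells. The study's methods state that unequal numbers of live cells were loaded into the channels, so these counts do not compare how many leukocytes the tumors held. Cells carried 1 of 16 cluster names given by the authors, and melanoma markers were near absent, with 3 of 6 listed genes at 0 in every control tumor and the other 3 summing to at most 0.0154 UMIs per 10000.

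Mt1 and Mt2 lie side by side on mouse chromosome 8, and their promoters are shown because they carry the elements read by Mtf1. In the GENCODE annotation of GRCm38, Mt2 (ENSMUSG00000031762) spans chr8:94172664-94173568 and Mt1 (ENSMUSG00000031765) spans chr8:94179082-94180327, both on the plus strand with 5513 bases and 0 annotated genes between them. Mtf1 (ENSMUSG00000028890) spans chr4:124802104-124849800 and Slc30a1 (ENSMUSG00000037434) spans chr1:191906767-191913247, also on the plus strand. Mt2 is overlapped by the antisense gene Gm45774, Slc30a1 by the antisense gene 1700034H15Rik, and Mtf1 by 1110065P20Rik on the other strand and by n-R5s192. The letters TGCACNC or TGCGCNC, the core of the metal response element, were searched on both strands in the 250 bases before the RefSeq start of each gene (GRCm38.p6). They occurred 3 times before Mt2, 1 time each before Mt1, Slc30a1 and Mt4, and 0 times before Mtf1 and Mt3. Of 32851 RefSeq promoters of that length, 21.4% held at least 1 match, 5.17% at least 2 and 1.26% at least 3. The Mt2 window is printed whole, at chr8:94172368-94172617, and 30 bases around the match are printed for Mt1, at chr8:94179055-94179084, and for Slc30a1, at chr1:191906727-191906756. Sequences are from RefSeq, run 5′ to 3′ on the plus strand, and have the matches in capitals.
Mt2: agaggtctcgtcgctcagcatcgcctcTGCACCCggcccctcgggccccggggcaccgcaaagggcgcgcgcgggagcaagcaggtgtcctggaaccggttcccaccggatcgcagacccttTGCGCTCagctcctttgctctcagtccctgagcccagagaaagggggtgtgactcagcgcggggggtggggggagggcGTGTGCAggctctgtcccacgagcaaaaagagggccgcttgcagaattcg
Mt1: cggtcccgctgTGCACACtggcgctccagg
Slc30a1: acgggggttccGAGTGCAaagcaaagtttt

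The matches began 223, 128 and 50 bases before the RefSeq start of Mt2, 23 before that of Mt1 and 43 before that of Slc30a1. The third match before Mt2 and the one before Slc30a1 were read on the minus strand. A whole palindromic GC response element occurred 0 times in the windows of the 4 genes and in 0.00913% of all promoters. Absence says only that these letters are not in these windows. In GENCODE other transcripts start at 94179211 and 94179241 for Mt1, 94172664 and 94172860 for Mt2 and 191907256 for Slc30a1. These starts lie past the ends of the windows, and the bases between were not searched. The numbers of matches therefore hold for the RefSeq starts only. No stretch of 90 bases of the Mt1 or Mt2 transcripts was shared with another gene or between the pair, so reads of that length could be assigned to 1 of them.

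In control tumors Mt1 was mainly a transcript of mononuclear phagocytes. The level used throughout is the mean over the cells of a tumor of UMIs per 10000 UMIs of the cell, and the median over control tumors with at least 10 cells of a cluster is given. Mt1 was highest in the dendritic cell cluster DC 2 at 4.43, in tumor-associated macrophages (TAM) at 3.88 and in the cluster Monocytes 1 at 3.24, and the ranges of these 3 overlapped. Below them lay Monocytes 2 at 1.02, whose range of 0.469 to 1.47 did not reach the 1.72 to 7.29 of Monocytes 1. That was the 1 pair of neighbours in the order without overlap. DC 1, Tregs and eosinophils followed at 0.814, 0.804 and 0.794. CD8 2 stood at 0.312, CD8 1 at 0.152, CD4 at 0.0992, neutrophils at 0.0839, CD8 3 at 0.0691 and NK cells at 0.0184. Neutrophils, NK cells and the CD4 and CD8 clusters of control tumors sat at the low end for Mt1, below Tregs, with neighbours that could not be separated.

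Mt2 followed a similar but not identical order. It was highest in DC 2 at 0.461, DC 1 at 0.368, TAM at 0.306 and Tregs at 0.291, then in Monocytes 1 at 0.142, and all neighbours in the order overlapped. In NK cells and neutrophils no Mt2 UMI was found in any control tumor. The 0 of 162 control neutrophils allow a level of up to 0.0551 UMIs per 10000, an exact 95% Poisson limit that, as for all such intervals here, covers counting error only.

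The regulator was found in all 13 clusters compared, and the exporter was at or near 0 in several. Mtf1 was highest in DC 1 at 0.459 and CD8 2 at 0.355, was 0.220 in TAM, and was lowest in neutrophils at 0.107 and CD8 3 at 0.103. Slc30a1 was highest in Monocytes 2 at 0.333, Monocytes 1 at 0.262 and TAM at 0.206, and had a median of 0 in DC 1, CD8 3, eosinophils and neutrophils. Neighbours overlapped throughout for both genes. TAM therefore ranked 11 of 13 clusters for Mtf1, whereas both metallothioneins and Slc30a1 had TAM among their first 3.

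**Figure D1:**
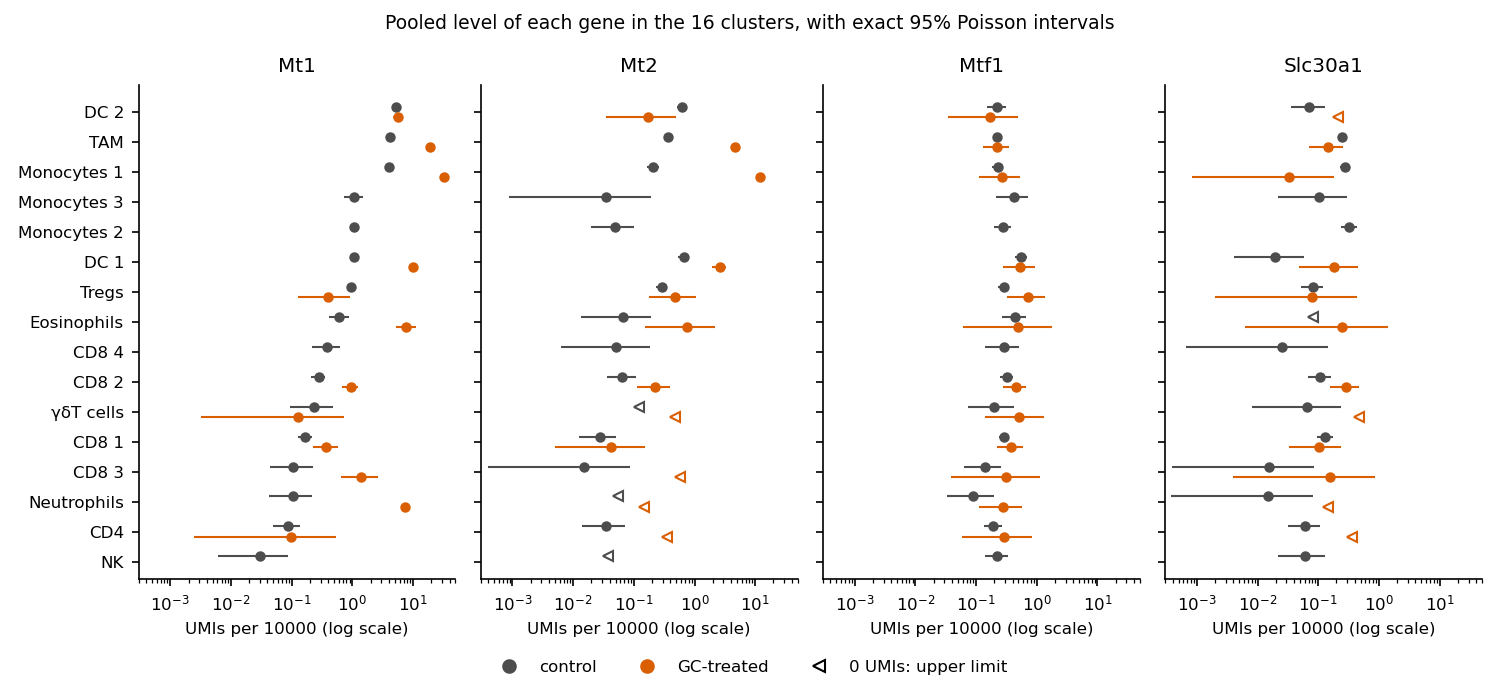
Pooled UMIs per 10000 of each gene (x axis, log scale) in the 16 clusters (y axis), for control cells (grey) and GC-treated cells (orange) of clusters with at least 5 cells of a group; bars are exact 95% Poisson intervals and open triangles the upper limit where no UMI was found. Mt1 spans the widest range among control clusters and sits to the right in GC-treated TAM, Monocytes 1, DC 1 and neutrophils, while most Mtf1 intervals of a cluster overlap between groups.

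Over all CD45+ cells both metallothioneins were higher on average after GC. By limma Mt2 passed only with the filter on low genes, and Mt1 did not pass. Mt1 was 1.24, 1.82, 1.25, 1.42 and 1.86 UMIs per 10000 in control tumors 1 to 5 and 2.43, 8.50, 8.23, 1.58 and 4.06 in GC-treated tumors 1 to 5. Mt2 was 0.170, 0.208, 0.104, 0.133 and 0.292 in control tumors and 1.25, 1.56, 2.40, 0.330 and 0.624 in GC-treated tumors. For Mt1, GC-treated tumor 4 lay within the control range and the other 4 above it. For Mt2 every GC-treated tumor lay above every control tumor, which 3.60% of the 6471 genes tested also showed.

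The means were 1.52 ± 0.303 and 4.96 ± 3.23 for Mt1 and 0.181 ± 0.0731 and 1.23 ± 0.815 for Mt2 (SD, n = 5 per group). On the scale of log2(level + 0.1), which understates changes of low genes, Mt2 rose by 2.03 ± 0.41 (SE, limma adjusted p = 0.0171), the rise ranked 12 among all genes. That call was lost without control tumor 1, 3 or 4, with sizes of 1.74 to 2.37 over all tumors left out. It was also lost without the filter on low genes (limma adjusted p = 0.0501). Mt2 passed that filter through the GC-treated tumors, since its control mean of 0.181 was under 0.2. Mt1 changed by 1.39 ± 0.41 (limma adjusted p = 0.0661). Of all genes tested 6.15% were called and 2.33% rose, and the median change of all genes was -0.11. The Mt1 result turned on the test and on 2 tumors: edgeR on recovered UMI sums gave 1.81 (adjusted p = 0.0256) and limma passed without GC-treated tumor 1 or 4. In a mixture of cells, more cells of a type and more RNA per cell cannot be told apart, and macrophage markers summed to 33 to 47.9 per 10000 in control tumors and 15.4 to 36.1 in GC-treated tumors.

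**Figure D2:**
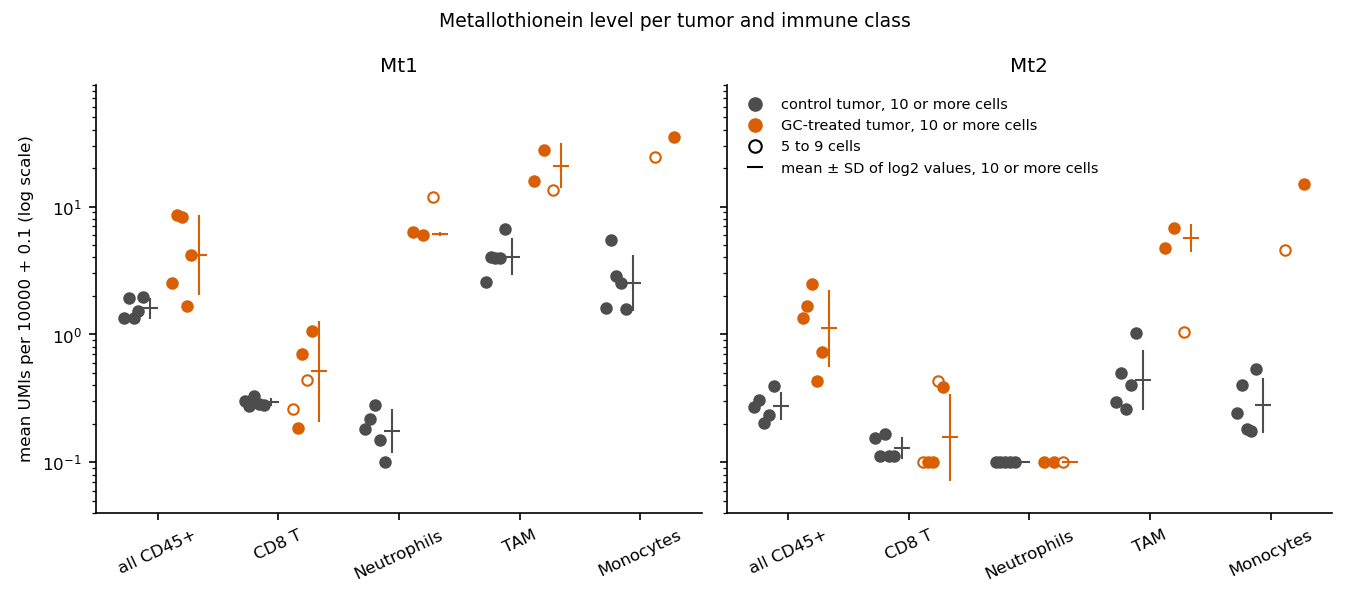
Mt1 (left) and Mt2 (right) as mean UMIs per 10000 plus 0.1 (y axis, log scale) in each tumor by immune class (x axis); filled points have 10 or more such cells, open points have 5 to 9, and bars are the mean ± SD of the log2 values of filled points. GC-treated TAM sit at 15.6 and 27.6 for Mt1 where control TAM reach 6.55, and Mt2 is at 0 in neutrophils of both groups.

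Holding the makeup fixed gave a rise of both metallothioneins. For this, the level of each tumor was set against the level its own mix of clusters would have with the values of control cells. Mt1 was expected at 0.664, 1.60, 1.22, 0.884 and 0.833 in GC-treated tumors 1 to 5 and was observed at 2.43, 8.50, 8.23, 1.58 and 4.06. Expected Mt2 was 0.119 to 0.147 in those tumors against an observed 0.330 to 2.40. In all 5 GC-treated tumors both genes lay above expectation, and relative to expectation each GC-treated tumor lay above each control tumor, as for 4.22% of genes.

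Relative to expectation Mt1 rose by 1.89 ± 0.35 on the log2 scale (limma adjusted p = 0.0271) and Mt2 by 2.19 ± 0.44 (adjusted p = 0.0347), with 2.36% of genes called and 1.51% rising. Both calls were lost when any 1 tumor other than GC-treated tumor 1 or 4 was left out, with sizes of 1.71 to 2.18 for Mt1 and 1.89 to 2.54 for Mt2, and when the filter on low genes was dropped. Mt2 passed that filter through the GC-treated tumors here as well. Mtf1 changed by 0.21 ± 0.19 (adjusted p = 0.573), and its observed level over expectation ranged from -0.31 to 0.57 on the log2 scale in GC-treated tumors.

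**Figure D3:**
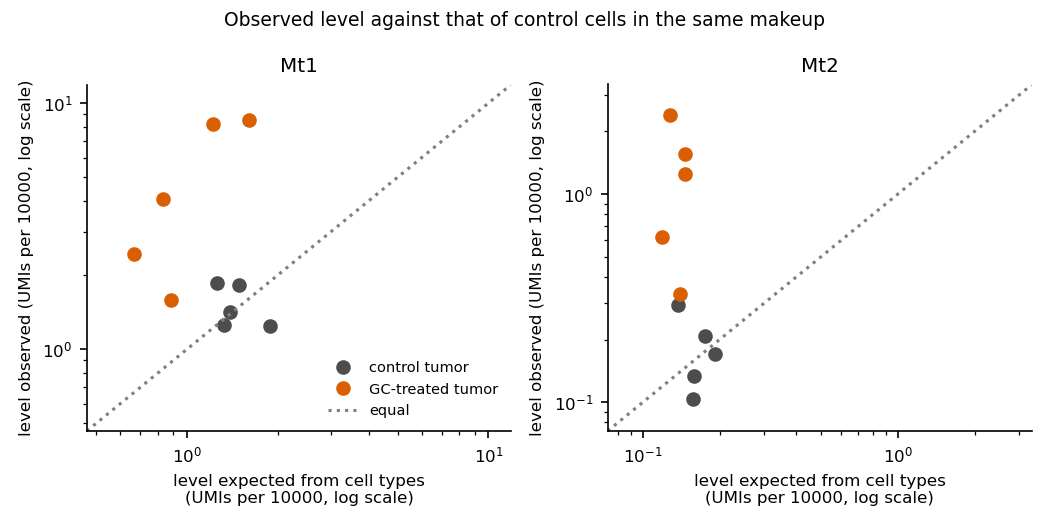
Observed level (y axis) of Mt1 (left) and Mt2 (right) in each tumor against the level expected from its mix of clusters at control values (x axis), both in UMIs per 10000 on log scales; the dotted line marks equality. All 5 GC-treated tumors lie above the line for both genes, with GC-treated tumor 4 closest to it at 1.58 against 0.884 for Mt1, while control tumors lie around it.

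Within TAM, the phagocytes that take up debris and dying cells, both metallothioneins rose. Mt1 was 2.48, 3.93, 3.88, 3.84 and 6.55 UMIs per 10000 in control tumors 1 to 5 and 15.6 and 27.6 in GC-treated tumors 2 and 3. Mt2 was 0.195, 0.400, 0.162, 0.306 and 0.920 in control tumors and 4.68 and 6.68 in GC-treated tumors 2 and 3. Those were the GC-treated tumors with at least 10 TAM. Neither gene overlapped between groups, as for 12.9% of the 5988 genes tested. GC-treated tumor 5, with 7 TAM, had 13.4 for Mt1 and 0.953 for Mt2, and tumor 4, with 3 TAM, had 2.06 and 0.406, so the low-cell tumors were not all above the controls.

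The means in TAM were 4.14 ± 1.48 and 21.6 ± 8.49 for Mt1 and 0.397 ± 0.307 and 5.68 ± 1.41 for Mt2 (SD, n = 5 and n = 2). Mt1 rose by 2.37 ± 0.33 on the log2 scale (limma adjusted p = 0.00185) and Mt2 by 3.70 ± 0.46 (limma adjusted p = 0.00120), ranked 14 and 3 among all rises. In TAM 21.2% of genes were called and 6.86% rose, so a call alone was common there, and the median change of all genes was -0.12.

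More TAM held the transcripts, and single cells held many of the UMIs. Mt1 was detected in 71.9% of 723 control TAM and 95.3% of 43 GC-treated TAM, or 24.8% and 59.7% after thinning every cell to 1000 UMIs. Mt2 was detected in 9.68% and 48.8%, or 2.46% and 19.0% after thinning. As a measure of background, Mt1 was found in 2.80% of 107 control NK cells, which had a median of 8736 UMIs against 12883 in control TAM and 17855 in GC-treated TAM. After thinning the NK share was 0.42%, below the 24.8% of control TAM. The GC channel had 4 NK cells, too few to measure a background there. Pooled over all CD45+ cells, Mt1 was 9.72 per 10000 in the GC channel and 2.19 in the control channel. The part of stray RNA from other cells in GC-treated values was not tested.

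The cell with most Mt2 UMIs held 131 of the 355 in GC-treated TAM, or 36.9%, and 70.8% of those in GC-treated tumor 3. In GC-treated tumors 2 and 3 the median cell had 15.6 and 11.4 per 10000 for Mt1, against means of 15.6 and 27.6, and 0 and 0.239 for Mt2, against means of 4.68 and 6.68. With the highest cell of every tumor left aside, an alternative chosen after the data were seen, the limma rise was 2.13 for Mt1 (adjusted p = 0.00110) and 3.04 for Mt2 (adjusted p = 0.00314). The Mt2 rise thus passed the test without those cells.

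Other genes moved in the TAM cluster as well. Chil3, a lectin of monocytes and macrophages, rose by 5.25, S100a8 by 2.57, Cxcr2 by 2.68 and Vcan by 1.10. Cd74, the invariant chain of antigen presentation, fell by 0.70 and Ccr2 fell by 0.33. By limma 1 of the 6 macrophage markers was called higher and 1 lower, with a median change of 0.02. Of the 4 monocyte markers 2 were called higher and 1 lower (median 1.48), in a class where 21.2% of all genes were called. The 4 monocyte markers summed to 10.9 to 16.4 per 10000 in control tumors and 40.0 to 43.6 in GC-treated tumors, with none at 0. The 6 macrophage markers summed to 131 to 157 and 106 to 143, and the 6 neutrophil markers to 0.936 to 1.22 and 1.93 to 3.63, with Retnlg and G0s2 at 0 in the GC-treated tumors. The part of these shifts in the metallothionein rise was not tested.

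Monocytes, the precursors of macrophages in the tumor, gave values of the same kind from fewer cells. The 3 monocyte clusters were joined, and since only 1 GC-treated tumor had 10 such cells, tumors with at least 5 were used, a choice made after the data were seen. The mix differed between groups: control cells were 311, 116 and 22 of Monocytes 1, 2 and 3 and GC-treated cells were 18, 2 and 1, and control tumor 5 had 4 of its 19 in Monocytes 1. Mt1 was 1.52, 5.33, 2.75, 2.44 and 1.47 in control tumors and 24.4 and 35.1 in GC-treated tumors 2 and 3, which had 8 and 10 monocytes. Mt2 was 0.141, 0.301, 0.0836, 0.0765 and 0.436 in control tumors and 4.46 and 14.8 in those GC-treated tumors. Again no value overlapped, as for 11.6% of genes.

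Mt1 rose by 3.55 ± 0.43 on the log2 scale (limma adjusted p = 0.00156) and Mt2 by 4.89 ± 0.54 (limma adjusted p = 0.00112), which was the highest rise of the 5765 genes tested, of which 15.4% were called and 3.95% rose. A single cell held 86 of the 88 Mt2 UMIs in the monocytes of GC-treated tumor 2, or 97.7%, and another held 44.2% in tumor 3. With the highest cell of each tumor left aside, the change was 3.41 for Mt1 (adjusted p = 0.0147) and 3.16 for Mt2 (adjusted p = 0.0777). The Mt1 rise in monocytes therefore did not rest on those cells, whereas the Mt2 call did. Leaving them aside took 1 of 8 and of 10 cells in GC-treated tumors and 1 of 19 to 168 in control tumors. Of 6 macrophage markers 4 fell, the complement genes C1qa by 4.41, C1qb by 2.30 and C1qc by 2.78 and Cd74 by 1.13, while Apoe rose by 0.96. The 4 monocyte markers summed to 25.2 to 34.2 in control tumors and 76.9 to 78.0 in GC-treated tumors, where Chil3 rose by 3.08. The part of these differences in the result was not tested.

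Neutrophils went from almost no Mt1 to a clear level, without Mt2. Mt1 was 0.0839, 0.119, 0.180, 0.0503 and 0 UMIs per 10000 in control tumors 1 to 5 and 6.20 and 5.85 in GC-treated tumors 2 and 3. GC-treated tumor 5, with 7 neutrophils, had 11.7, and tumors 1 and 4, with 2 neutrophils each, had 0 and 0.758. The tumors with at least 10 cells did not overlap between groups, as for 11.3% of the 4411 genes tested. Mt1 rose by 5.12 ± 0.57 on the log2 scale (limma adjusted p = 1.82e-05), the rise ranked 2 in this class, where 4.83% of genes were called and 2.09% rose. Its control mean of 0.0866 was under the filter of 0.2, so Mt1 was tested through the GC-treated tumors. The call was kept without the filter (limma adjusted p = 1.01e-12), where 2.41% of genes were called. With control levels near the pseudocount of 0.1, the pseudocount affects the size.

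In numbers of molecules, 7 Mt1 UMIs lay in 7 of 162 control neutrophils and 186 in 15 of 44 GC-treated neutrophils, a pooled ratio of 70.0 (95% interval 33.3 to 177). The cells with Mt1 were 4.32% and 34.1% of neutrophils, or 0.949% and 22.2% after thinning to 1000 UMIs. The control share lay within the interval of the NK background of the control channel, 0.582% to 7.98%. No such background was measured for the GC channel. Leaving aside the highest cell of each tumor gave a rise of 5.08 (limma adjusted p = 9.67e-05). The signal was thus spread over more than 1 cell and present in 34.1% rather than all of the GC-treated neutrophils.

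Mt2 was at 0 in all neutrophils of both groups, which allows up to 0.0551 per 10000 in control and 0.145 in GC-treated cells. The level of Chil3 in neutrophils rose by 8.93 (limma adjusted p = 4.07e-10) and carried the sum of the 4 monocyte markers from 0.373 to 1.39 up to 61.8 to 68.4, while the 6 neutrophil markers summed to 347 to 594 and 401 to 523. Chil3 was 81.1 per 10000 in the 15 GC-treated neutrophils with Mt1 and 72.4 in the 29 without. Of the 6 macrophage markers C1qb and C1qc were at 0 in the GC-treated neutrophils, and median depth was 4220 UMIs in control and 5882 in GC-treated neutrophils. The part of depth and of these markers in the Mt1 rise was not tested.

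CD8 T cells, the cytotoxic lymphocytes of the infiltrate, gave a difference in Mt1 that depended on the test. With CD8 1, CD8 2 and CD8 3 joined, Mt1 was 0.200, 0.175, 0.233, 0.188 and 0.183 in control tumors and 0.0853, 0.603 and 0.958 in GC-treated tumors 2, 3 and 5. One GC-treated tumor lay below and 2 lay above all control tumors. The limma change was 0.81 ± 0.44 (adjusted p = 0.314), with 5.02% of 6158 genes called. With a control mean of 0.196, Mt1 passed the filter here through the GC-treated tumors. The count tests on UMI sums gave 1.97 with edgeR (adjusted p = 0.000721) and 1.92 with DESeq2 (adjusted p = 7.32e-05), and limma without GC-treated tumor 2 gave 1.55 (adjusted p = 0.000501).

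Leaving aside the highest cell of each tumor lowered the limma change of Mt1 in CD8 T cells to 0.17 (adjusted p = 0.864). This took 1 of 12 to 41 cells in GC-treated tumors and 1 of 84 to 385 in control tumors. It can therefore lower GC-treated levels more, and in GC-treated tumor 2 it took the only Mt1 UMI. Of the 2 subclusters that could be fitted, CD8 1 changed by 1.01 ± 0.32 (limma adjusted p = 0.0801, with 6.38% of genes called and 9.84% not overlapping upward, as Mt1 did) and CD8 2 by 1.92 ± 0.58 (limma adjusted p = 0.115, with 2.12% called and 9.07% not overlapping upward). In CD8 1 the control mean of Mt1 was 0.17, so Mt1 passed the filter there through the GC-treated tumors as well. Mt2 was under the filter in CD8 T cells, with 24 UMIs in 880 control and 13 in 107 GC-treated cells, and changed by 0.27 without the filter (limma adjusted p = 0.744). Mt1 was found in 10.6% and 21.5% of CD8 T cells, or 1.95% and 4.85% after thinning, at median depths of 6826 and 9741 UMIs. Macrophage markers in these cells summed to 1.4 to 2.29 in control and 0.192 to 0.407 in GC-treated tumors, monocyte markers to 8.80 to 14.1 and 2.96 to 3.84, and dendritic cell markers to 0.152 to 0.571 and 0.663 to 2.30. The part of depth and of these markers in the Mt1 values was not tested.

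For the 2 GC-treated tumors where classes could be compared within a tumor, the change of Mt1 differed between classes by limma. These calls needed the filter on low genes. The log2 difference between TAM and CD8 T cells for Mt2 was 0.93, 2.16, 0.65, 1.86 and 3.17 in control tumors and 5.58 and 6.08 in GC-treated tumors 2 and 3. For Mt1 it was 3.10, 3.88, 3.58, 3.77 and 4.55 against 6.40 and 5.30. For Mt1 the gap between TAM and CD8 T cells widened by 2.08 ± 0.41 (limma adjusted p = 0.0239). For Mt2 the fitted change of the gap was 4.08 ± 0.59 (limma adjusted p = 0.00750), but Mt2 passed the filter through TAM alone. CD8 T cells of GC-treated tumors 2 and 3 had 0 Mt2 UMIs, so the pseudocount sets the size, and GC-treated tumors 4 and 5, left out here, had 0.334 and 0.286 in CD8 T cells. In this fit 5.70% of genes were called, 2.53% widened and 12.8% lay above the control range in both GC-treated tumors. The Mt1 call was lost without control tumor 1, 2, 3 or 4, with sizes of 1.52 to 2.63. Between neutrophils and CD8 T cells the Mt1 difference widened by 4.83 ± 0.59 (limma adjusted p = 0.00536), with 0.761% of genes called, 0.545% widening and 11.1% above the control range. Mt1 passed the filter here through the GC-treated tumors, since control means were 0.0866 in neutrophils and 0.196 in CD8 T cells. Control neutrophils held 7 Mt1 UMIs, and CD8 T cells of GC-treated tumor 2 held 1 in 12 cells. The pseudocount therefore affects the size of both Mt1 gaps.

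Mt1 rose in both TAM and neutrophils, while Mt2 had no UMI in neutrophils of either group. The fitted Mt2 difference between these classes, 3.70 ± 0.56 (limma adjusted p = 0.0351), therefore restates the TAM change against a constant floor and is no test of a difference between classes, with 0.353% of genes called, 0.107% widening and 8.18% above the control range. Their Mt1 difference was 3.81 to 6.06 in control tumors and 1.32 and 2.22 in GC-treated tumors, a change of -2.75 ± 0.63 that missed the threshold (limma adjusted p = 0.107), while 11.1% of genes lay below the control range. All 4 of the calls between classes were lost without the filter on low genes, with adjusted p from 0.0522 to 0.122.

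**Figure D4:**
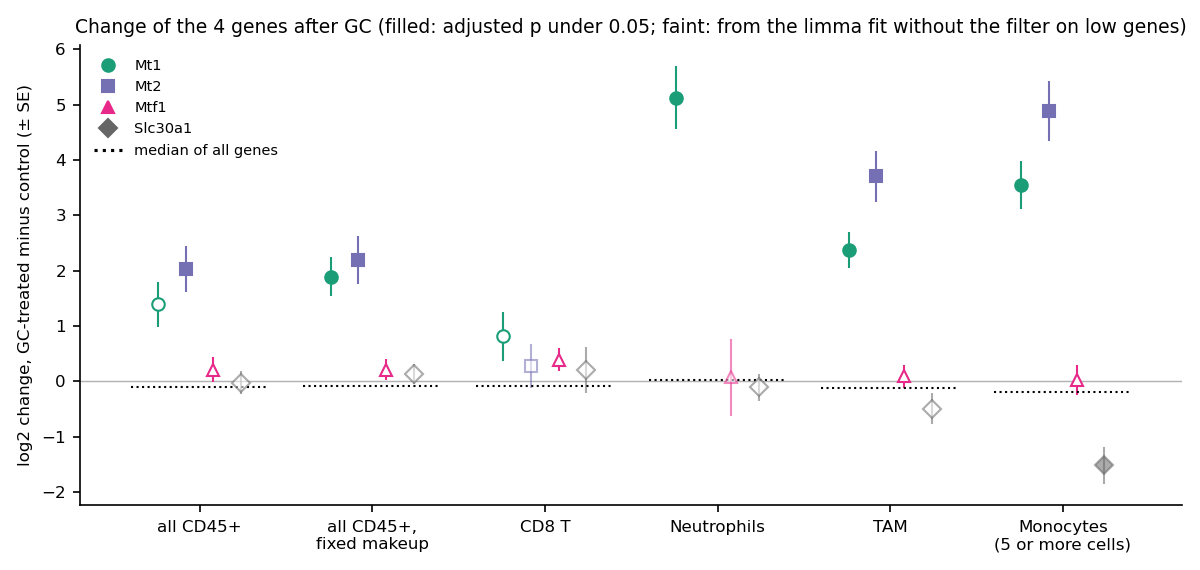
Change of each gene after GC (y axis, log2 scale, ± SE) from the limma fits in all CD45+ cells, at fixed makeup, and in 4 classes (x axis); filled symbols have an adjusted p under 0.05, faint ones come from the fit without the filter on low genes, and dotted lines mark the median of all genes. Mt1 and Mt2 stand above that median in TAM at 2.37 and 3.70 and in monocytes at 3.55 and 4.89, Mtf1 lies between 0.02 and 0.39, and Slc30a1 is at -1.52 in monocytes.

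Pooled over tumors, Mt2 made up more of the pair's UMIs after GC in TAM and Monocytes 1 and less in DC 1 and DC 2, but the tumors overlapped. Mt2 as a share of Mt1 and Mt2 UMIs compares groups and clusters, since 3′ UMIs are not corrected for capture of each gene. The share was 8.09% (95% interval 7.28% to 8.96%) in control TAM and 19.2% (17.5% to 21.1%) in GC-treated TAM. In Monocytes 1 it was 4.93% and 27.1%. Per tumor, GC-treated TAM of tumors 2 and 3 had 24.9% and 18.1%, and tumor 5 had 7.33%, within the 4.51% to 12.5% of control tumors. In DC 1 it was 38.4% (32.5% to 44.6%) and 20.8% (16.2% to 26.0%), and in DC 2 it was 10.6% and 2.88%, the last from 3 UMIs in 1 cell. DC 1 of GC-treated tumor 5 had 27.8%, above control tumors 2 and 5 at 23.4% and 26.1%, and DC 2 of control tumors 4 and 5 had 0% and 3.03%. In CD8 2 it was 18.9% (10.7% to 29.7%) and 19.3% (10.0% to 31.9%). Single cells weigh on these shares. In TAM of GC-treated tumor 3, 1 cell held 70.8% of the Mt2 UMIs. In Monocytes 1, 1 cell held 97.7% of them in GC-treated tumor 2 and 1 cell held 91.7% in control tumor 2. The intervals treat UMIs of the same cell as independent, and the shares without such cells were not tested.

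Per tumor, over all CD45+ cells, the log2 ratio of Mt2 to Mt1 was -2.32, -2.64, -2.73, -2.70 and -2.32 in control tumors and -0.91, -2.38, -1.74, -1.96 and -2.52 in GC-treated tumors. The means were -2.54 ± 0.20 and -1.90 ± 0.64 (SD, n = 5 each), a difference of 0.64 (exact two-sided permutation p = 0.0476, the smallest possible being 0.00794). GC-treated tumors 2 and 5 lay within the control range. With a pseudocount of 1 in place of 0.1 the difference turned to -0.22 (exact permutation p = 0.381), and p was above 0.05 when any of control tumors 2, 3 and 4 or GC-treated tumors 1, 3 and 4 was left out.

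**Figure D5:**
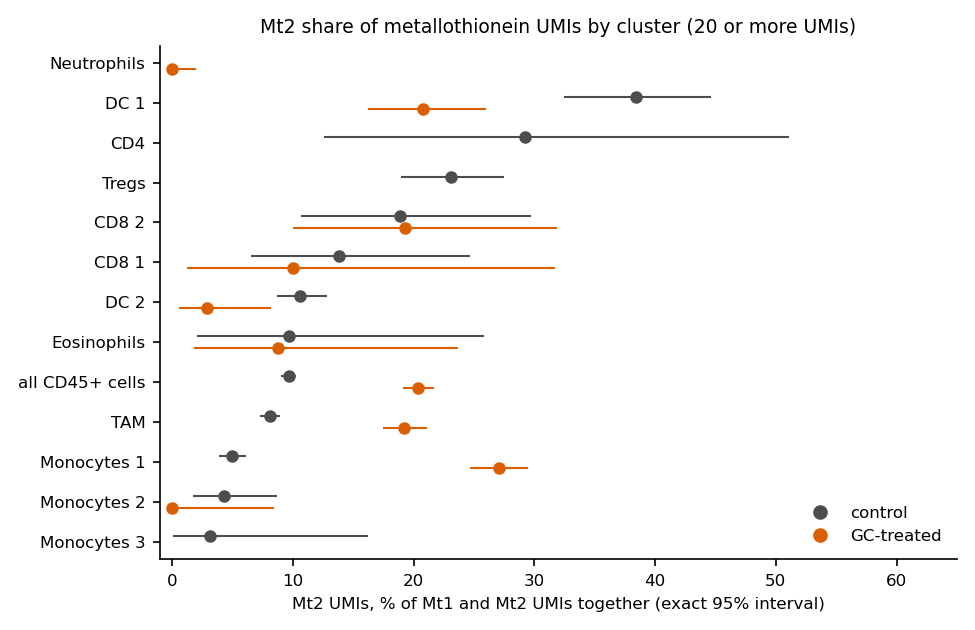
Mt2 UMIs as a percentage of Mt1 and Mt2 UMIs together (x axis) in each cluster with at least 20 such UMIs (y axis), for control (grey) and GC-treated cells (orange) pooled over tumors, with exact 95% intervals. The share is higher after GC in TAM (19.2% against 8.09%) and Monocytes 1 (27.1% against 4.93%) and lower in DC 1 (20.8% against 38.4%). A single cell held 36.9% of the Mt2 UMIs in GC-treated TAM and 30.4% in GC-treated Monocytes 1, against 9.41% and 42.3% in control cells.

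The remaining clusters had too few GC-treated tumors for a test and are given as pooled levels, with intervals that leave out the spread between tumors. DC 1 had 1.06 Mt1 UMIs per 10000 in 97 control cells and 9.91 in 10 GC-treated cells, a ratio of 9.34 (7.59 to 11.5), and its GC-treated tumors 1 to 5 were at 7.19, 6.34, 0.539, 12.0 and 14.4 from 1 to 3 cells each. DC 2, the cluster with most Mt1 in control tumors, had 5.28 and 5.70, a ratio of 1.08 (0.869 to 1.33). Tregs had 0.958 and 0.397, a ratio of 0.415 (0.134 to 0.978) from 5 GC-treated UMIs. In eosinophils 24 of the 31 GC-treated Mt1 UMIs, or 77.4%, came from 1 cell. The interval of the ratio thus included 1 in DC 2 and not in DC 1. Mt1 was scarce in CD4 cells (17 UMIs in 253 control and 1 in 10 GC-treated cells), γδT cells (7 in 43 and 1 in 11) and NK cells (3 in 107 and 0 in 4).

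Mtf1, the metal sensor, did not pass the limma test in any class where it was tested. In neutrophils Mtf1 was under the filter, with 6 UMIs in 162 control cells and 7 in 44 GC-treated cells, 5 of them in 1 cell. Without the filter its change there was 0.07 ± 0.69 (limma adjusted p = 0.964). Over all CD45+ cells it was 0.269 ± 0.0504 in control tumors and 0.339 ± 0.113 in GC-treated tumors (SD, n = 5 each), a change of 0.21 ± 0.22 (limma adjusted p = 0.614). In TAM its change was 0.09 ± 0.21 (limma adjusted p = 0.780), in monocytes 0.02 ± 0.27 (adjusted p = 0.961) and in CD8 T cells 0.39 ± 0.21 (adjusted p = 0.295). The CD8 T cells of GC-treated tumors 2, 3 and 5 had 0.382, 0.334 and 0.468 against 0.238 to 0.323 in control tumors, so the groups did not overlap, as for 5.70% of genes. DESeq2 called Mtf1 over all CD45+ cells at 0.51 (adjusted p = 0.0480), while edgeR gave 0.50 (adjusted p = 0.0894). Within Tregs the pooled ratio was 2.52 (1.12 to 4.99) from 9 GC-treated UMIs in 14 cells.

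Slc30a1, the zinc exporter, was under the filter in every class, and its levels over all CD45+ cells had the same mean: 0.116 ± 0.0308 in control tumors and 0.116 ± 0.0633 in GC-treated tumors (SD, n = 5 each). In TAM it was 0.147 to 0.314 in control tumors and 0.0707 and 0.195 in GC-treated tumors 2 and 3, a change of -0.50 ± 0.28 without the filter (limma adjusted p = 0.332). In monocytes 154 UMIs lay in 449 control cells and 1 in 21 GC-treated cells, and the per tumor range was 0.180 to 0.345 against 0 and 0.0537, below every control tumor as for 23.7% of the genes past the filter. There Slc30a1 fell by 1.52 ± 0.34 without the filter (limma adjusted p = 0.0259, 4.06% of 16788 genes called). The exporter and the metallothioneins therefore changed in opposite directions in GC-treated monocytes, for Slc30a1 on the count of a single UMI.

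Among the other zinc transporters few calls were made. Of the 10 zinc exporters of the Slc30 family, 4 passed the filter over all CD45+ cells and none was called, with a median change of -0.16 against -0.11 for all genes. In TAM 1 of 3 exporters fell: Slc30a9 by 0.46 ± 0.14 (limma adjusted p = 0.0381), which edgeR did not call (adjusted p = 0.184), in a class where 21.2% of all genes were called. Of the 14 zinc importers of the Slc39 family 7 were tested over all CD45+ cells, 7 in CD8 T cells, 3 in neutrophils, 5 in TAM and 5 in monocytes, and limma called none. In the comparison of TAM with CD8 T cells 1 of 7 importers was called: the gap of Slc39a14, which imports zinc and iron, widened by 1.54 ± 0.30 (limma adjusted p = 0.0221).

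No copper gene passed the test, and 2 of 4 iron genes tested rose in TAM. None of the copper handling genes was called in all CD45+ cells, CD8 T cells, neutrophils, TAM or monocytes. Of all genes tested 6.15%, 5.02%, 4.83%, 21.2% and 15.4% were called in these 5 comparisons. The iron storage subunits Fth1 and Ftl1 rose in TAM by 0.57 ± 0.087 and 0.56 ± 0.12 (limma adjusted p = 0.00157 and 0.00779), where 6.86% of all genes rose. In monocytes 1 of 5 iron genes rose and 1 fell: Fth1 rose by 1.38 and the phagosomal metal transporter Slc11a1 fell by 2.25. Of 8 oxidative stress genes tested in each of TAM, monocytes and neutrophils, 1 was called in neutrophils and 0 in TAM and monocytes. In neutrophils 4.83% of all genes were called, and a lone call among 8 genes says little about the list. Slc7a11, the cystine importer, fell by 1.43 ± 0.17 in neutrophils (limma adjusted p = 5.40e-05).

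Known GC targets rose beside the metallothioneins. Of 10 such genes 5 rose over all CD45+ cells, 4 of 8 in CD8 T cells, 4 of 10 in neutrophils, 6 of 10 in TAM, and in monocytes 5 rose and 2, Zbtb16 and Cebpd, fell. Of all genes tested 2.33%, 2.27%, 2.09%, 6.86% and 3.95% rose in these 5 comparisons. In TAM Fkbp5, a chaperone of the GC receptor, rose by 3.04 ± 0.19, Klf9 by 2.68 ± 0.25 and Tsc22d3, which encodes GILZ, by 2.28 ± 0.21, beside 2.37 for Mt1 and 3.70 for Mt2. The median change of the list was 1.11 in TAM and 0.78 over all CD45+ cells. In CD8 T cells, where Mt1 did not pass, Klf9 rose by 1.44 ± 0.25.

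Among other genes near the pair on chromosome 8 none was called in the 5 classes tested. Mt3 and Mt4 did not pass the filter, and 1 of these 4 metallothioneins had no UMI at all in the table. In TAM Nudt21 changed by 0.01 ± 0.25 (limma adjusted p = 0.986) and Nup93 by -0.98 ± 0.42 (limma adjusted p = 0.123).

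The genes most like Mt1 and Mt2 were named from 21 pooled profiles, 1 for each cluster and group with at least 20 cells, over 6532 genes. Mt1 was most like Ndrg1, Fmnl2, St3gal1 and Csf2rb2, each at a Pearson r of 0.83, and Gng5 at 0.82, with Mt2 at rank 19 (r = 0.75). Mt2 was most like Ndrg1 at 0.80, Scin at 0.78, Hcfc1r1 at 0.76, Mt1 at 0.75 and Dapp1 at 0.72. Mtf1 reached 0.26 with Mt1 and 0.25 with Mt2. Profiles of a channel share libraries and depth, so these values describe the table and carry no test. Ndrg1, a gene of the hypoxia list that led both rankings, rose in TAM by 1.08 ± 0.21 (limma adjusted p = 0.00588) and in monocytes by 1.67 (adjusted p = 0.0275). Of that list 1 of 6 genes tested rose in TAM (median change 0.01), 2 of 7 rose in monocytes and 1 of 6 fell over all CD45+ cells (median -0.50).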

How the data were processed

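Per the labels and the study's methods, the authors aligned reads with Cell Ranger 7.1.0 to mm10 with introns included, assigned hashtags in Seurat 5.0.3, kept single-hashtag cells and removed outliers in UMIs, genes or mitochondrial percent. The authors deposited natural log values of 1 plus UMIs per 10000, the counts of UMIs and genes per cell, the percent of mitochondrial UMIs, the hashtag and a cluster name; the percent was used for checks only. Multiplying back gave whole UMIs for 100% of 10330441 values above 0 (tolerance 0.01).

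The replicate was the tumor, 5 per group. Nothing in the labels ties hashtag numbers across groups. Mean UMIs per 10000 per tumor and class (at least 10 cells) were compared as log2(mean + 0.1) with limma 3.58.1 (trend, robust variance, Benjamini-Hochberg over all genes with a mean of at least 0.2). edgeR 4.0.16 and DESeq2 1.42.0 on UMI sums, other pseudocounts, filters, scalings and cell minimums, and leaving out each tumor were alternatives. The 2 hashtag libraries were not analysed here. Doublets within a tumor were not sought, and cells per class limit precision. Scripts were tested on simulated data. The 4 genes, gene lists and tests were chosen with earlier results of these data known. Named genes were the 4 members, up to 4 called genes of each metal, stress and GC target list with the largest changes, neighbours of the locus, and the 5 genes most correlated with Mt1 and with Mt2. Marker genes and Ndrg1 were named after their values were seen. The fit of monocytes with at least 5 cells and the leaving aside of the highest cell were also chosen after seeing the data.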

Additional observations from a re-analysis of the deposited data

Results flagged for a closer look

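Slc30a1 in neutrophils of control tumor 3 was at 0.0465 UMIs per 10000, from 1 UMI, while the other 4 control tumors were at 0, so any value above 0 stands apart from the group. A single UMI is within counting error (pooled level 0.0149, 95% interval 0.000378 to 0.0833), and nothing is read from it. Of 31 groups of tumors looked at in this way this was the only find. By chance about 1 in 20 such groups gives a find, so 1 among 31 groups is not unusual.

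By a test of the difference itself, the change of Mt1 differed between TAM and CD8 T cells (2.08 on the log2 scale). It also differed between neutrophils and CD8 T cells (4.83). Both Mt1 calls were lost without the filter on low genes (limma adjusted p = 0.0861 and 0.0858). In the neutrophil fit Mt1 passed that filter through the GC-treated tumors, and levels near the pseudocount affect both sizes. The same fits also passed Mt2 between TAM and CD8 T cells (4.08) and between TAM and neutrophils (3.70), but Mt2 had 0 UMIs in the GC-treated CD8 T cells used and in all neutrophils, so these values restate the TAM change against a floor. Each rests on GC-treated tumors 2 and 3, the ones with at least 10 cells of both classes, against 5 control tumors.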

How the results depend on the processing

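Calls rest on few GC-treated tumors and cells, and treatment is also the channel. Where 2 GC-treated tumors were used, leaving 1 out leaves a lone tumor that limma assumes to vary like the controls. No paired analysis was possible because a hashtag number is only a name and ties no control tumor to a GC-treated one. The cause of the changes below was not tested. Over 10 or fewer tumors left out in turn, the count of genes called ran from 101 to 666 in all CD45+ cells, 16 to 504 at fixed makeup, 135 to 604 in CD8 T cells, 218 to 1250 in CD8 1, 63 to 146 in CD8 2, 105 to 241 in neutrophils, 867 to 2117 in TAM, 488 to 1502 in monocytes, 93 to 2851 between TAM and CD8 T cells, 24 to 41 between neutrophils and CD8 T cells, and 1 to 54 between TAM and neutrophils. Log2 changes of Mt1 ran from 1.12 to 1.71 in all CD45+ cells, 1.71 to 2.18 at fixed makeup, 0.29 to 1.55 in CD8 T cells, 0.75 to 1.27 in CD8 1 and 1.52 to 2.63 between TAM and CD8 T cells. Those of Mt2 ran from 1.74 to 2.37 in all CD45+ cells, 1.89 to 2.54 at fixed makeup and 3.45 to 4.01 between TAM and neutrophils. Those of Mtf1 turned sign, from -0.08 to 0.35 in CD8 2, -0.14 to 0.32 in TAM, -0.15 to 0.19 in monocytes, -1.19 to 0.75 between neutrophils and CD8 T cells and -1.10 to 1.15 between TAM and neutrophils. The Mt2 to Mt1 ratio ran from 0.39 to 0.80. The limma calls of Mt1 and Mt2 in TAM (1.96 to 2.78 and 3.45 to 4.01) and monocytes (3.29 to 3.83 and 4.03 to 5.74) and of Mt1 in neutrophils (4.92 to 5.29) were kept without each tumor.

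Without the filter on low genes, Mt2 lost its call in all CD45+ cells (2.03), as did Mt1 (1.89) and Mt2 (2.19) at fixed makeup, Mt1 (2.08) and Mt2 (4.08) between TAM and CD8 T cells, Mt1 between neutrophils and CD8 T cells (4.83) and Mt2 between TAM and neutrophils (3.70). The genes called were then 167 in CD8 T cells (309 with the filter), 231 in CD8 1 (395), 69 in CD8 2 (129), and 166 (412), 5 (53) and 11 (23) in the 3 differences in the order just given. With tumors of at least 20 cells Mt1 passed in all CD45+ cells (1.57), CD8 T cells (1.55) and CD8 1 (1.27), the ratio no longer did (0.39), and 607, 604 and 844 genes were called there and 504 at fixed makeup; this could not be fitted in CD8 2, neutrophils, TAM or the differences. With at least 5 cells, 195 genes were called in CD8 T cells, 151 in CD8 1, 250 between TAM and CD8 T cells and 38 between TAM and neutrophils. Mt1 (1.35) and Mt2 (2.62) then lost their calls between TAM and CD8 T cells, as did Mt2 between TAM and neutrophils (2.89), where Mt1 passed (-3.28), and Mtf1 turned sign in TAM (-0.05), between neutrophils and CD8 T cells (0.45) and between TAM and neutrophils (-0.89). With a pseudocount of 1, Mt1 passed in CD8 2 (0.73), the ratio turned sign (-0.22), and 343 genes were called at fixed makeup, 156 between neutrophils and CD8 T cells and 65 between TAM and neutrophils. With means of log values, the counts were 212 in CD8 2, 390 in neutrophils (213), 394 at fixed makeup (153), 684, 218 and 136 in the differences, and Mt1 turned sign between TAM and neutrophils (0.89).

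edgeR called 610 genes in all CD45+ cells (398 by limma), 222 in CD8 1, 670 in TAM (1270) and 393 in monocytes (887), and DESeq2 1080, 199, 735 and 553. Mt1 passed in all CD45+ cells (1.81 and 1.79) and CD8 T cells (1.97 and 1.92) with both, and in CD8 2 with edgeR (2.17), while Mtf1 passed in all CD45+ cells with DESeq2 (0.51). Leaving aside the highest cell of each tumor ended the Mt2 call in monocytes (3.16). Under median-of-ratios scaling 222 genes rose and 161 fell in all CD45+ cells, where 151 and 247 did in the main scaling, in TAM 563 and 613 against 411 and 859, in CD8 T cells 167 and 127 against 140 and 169, in monocytes 282 and 484 against 228 and 659, at fixed makeup 134 and 33 against 98 and 55, between neutrophils and CD8 T cells 25 and 18 against 38 and 15, and between TAM and neutrophils 11 and 13 against 7 and 16.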

Other observations

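Cells with Mt2 were mostly a subset of cells with Mt1. Over all CD45+ cells 147 of 186 control cells with Mt2 also had Mt1, and 45 of 50 GC-treated cells did. Mt1 was in 29.3% of all control cells and 39.7% of all GC-treated cells. In GC-treated TAM all 21 cells with Mt2 had Mt1, where 95.3% of all cells had it. In control DC 2 all 17 did, where 69.5% of all cells had Mt1. In control CD8 T cells 7 of 20 did, or 35%, where 10.6% of all cells had Mt1. These shares depend on how common Mt1 was in each class, so they show no difference in pairing between classes. Deeper cells show both genes more often, and depth was not equalised for these counts.

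Among control TAM, the 520 cells with Mt1 had 3.23 Ndrg1 UMIs per 10000 and the 203 without had 1.53, at median depths of 14052 and 9641 UMIs. In GC-treated neutrophils the GC target Fkbp5 was 1.66 in the 15 cells with Mt1 and 3.36 in the 29 without, and Klf9 was 2.10 and 1.28. These values pool cells of several tumors and were not tested.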
